A study of Mus musculus with 7 samples.

Results

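The iron uptake, storage and regulatory genes of mouse erythroblasts were taken as 10 genes: Tfrc and Tfr2 (the transferrin receptors), Slc11a2, Steap3, Slc40a1, the ferritin subunits Fth1 and Ftl1, Ncoa4, and the iron regulatory proteins Aco1 and Ireb2. Every probe set of the array whose annotated gene was one of these alone was counted as a member, and each was kept apart. This gave 22 probe sets for 9 genes, out of 45037 probe sets for 18193 genes in all. Ftl1 had no probe set of its own, since its 3 probe sets are shared with other loci, so no value is given for it. The array also carries 3 control probe sets for the 3′, middle and 5′ segments of Tfrc, which were added as a further readout of that message.

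RNA came from erythroblasts that were positive for TER-119 and CD71, sorted from the bone marrow of irradiated mice that had received fetal liver cells of either genotype, and it was measured on Affymetrix Mouse Genome 430 2.0 arrays. The Sod2-/- samples (replicates 31, 35 and 39, n = 3) lack the superoxide dismutase of the mitochondrial matrix, and the Sod2+/+ samples (replicates 17, 29, 33 and 37, n = 4) came from littermate donors. Donors were E13.5-16.5 embryos of heterozygous B6-Sod2tm1Cje matings. Recipients of both genotypes were C57BL/6 mice congenic for Ly5.1, aged 11 to 15 weeks when irradiated. Only the transplanted blood cells carry the deletion, so the recipient's own tissues were Sod2+/+ in both groups. The time between transplantation and sorting, the number of animals behind each array and the share of cells of host origin in each sort are not stated. The samples are described as biological replicates, and the p-values cover the spread among these 7 arrays alone. One further Sod2-/- array of the study was not used here.

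An erythroblast takes up iron as transferrin bound to transferrin receptor 1, the product of Tfrc, whose protein is also called CD71. In the endosome the ferrireductase STEAP3 reduces the iron and the divalent metal transporter DMT1, encoded by Slc11a2, moves it to the cytosol. Iron that is not sent to mitochondria for heme is stored in ferritin, from which NCOA4 returns it by delivering ferritin to lysosomes, or leaves the cell through ferroportin, encoded by Slc40a1. The iron regulatory proteins IRP1 (Aco1) and IRP2 (Ireb2) bind iron-responsive elements (IREs) when iron is scarce. Binding protects the Tfrc message from decay and blocks translation of the ferritin messages, so that ferritin is regulated largely without a change in its RNA.

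The deposited values are log2 values made by robust multi-array averaging (RMA), and each difference below is Sod2-/- minus Sod2+/+ on that scale. A probe set was called when its adjusted p in limma, with Benjamini-Hochberg adjustment over all 45037 probe sets, was under 0.05. Array medians ran from 4.45 to 4.54. The 95th percentile of an array ran from 8.20 to 8.42 in Sod2-/- samples, against 8.42 to 8.71 in Sod2+/+ samples. Replicate 31 of Sod2-/- and replicates 17 and 29 of Sod2+/+ were processed on fluidics station 1, the others on station 2. Sod2-/- replicates 31 and 39 came from a chip lot of their own, and Sod2-/- replicate 35 shared its lot with all Sod2+/+ arrays. A difference within that lot, or with chip lot as a block, therefore rests on replicate 35 alone against 4 Sod2+/+ arrays, and one within station 1 on replicate 31 alone against 2. No spread between Sod2-/- arrays stands behind such a value. The brightest Sod2 probe set read 8.47, 8.09 and 8.61 in Sod2-/- replicates 31, 35 and 39, and 8.32, 8.62, 8.20 and 8.59 in Sod2+/+ replicates 17, 29, 33 and 37. The study's authors state that a message lacking an exon is still made in Sod2-/- cells and that part of the probe sets for it fall outside the deletion, so these values do not check the labels. Of 10 erythroid markers 7 were measured, each brighter than the median probe set and none called, with a median difference of 0.07. Of 9 measured B cell markers 6 were lower in Sod2-/- samples, and the summed linear level of the 9 was 310 to 352, against 552 to 709 in Sod2+/+ samples. None of 11 measured neutrophil markers was called, but limma had 9 lower at an unadjusted p under 0.05, against 12.5% of all probe sets. Their summed linear level was 16500 to 34400 in Sod2-/- samples and 34600 to 43200 in Sod2+/+ samples. For the 7 erythroid markers the sums were 27800 to 31200 in Sod2-/- and 28200 to 29100 in Sod2+/+ samples.

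In Sod2-/- erythroblasts 3 member probe sets were higher and 1 was lower, so 18.2% of the 22 were called, against 3.4% of all probe sets. The members were chosen with earlier results of these data known, so these shares are a description without a test. The higher calls were 1 of 3 probe sets of Tfrc and both of Ncoa4, and the lower call was 1 of 2 probe sets of Tfr2. Over all probe sets 0.566% were called higher and 2.83% lower. At 1.5-fold or more 2 calls remained, 1 probe set each of Tfrc and Ncoa4. The other 18 probe sets, among them all those of Slc11a2, Steap3, Slc40a1, Fth1, Aco1 and Ireb2, were not called. Of the 22 differences 7 were above 0 and 15 below, with a median of -0.21. Over all tested probe sets the median was 0.03 and 40.6% lay below 0, as did 50.3% of those brighter than the median. Only 1 of the 22 members was dimmer than the median probe set, and calls were more common among bright probe sets. When the 22518 bright probe sets alone were tested, limma called 360 higher and 2076 lower, among them 4 and 3 member probe sets. The 3 include Aco1 1456728_x_at, which counted as bright only through its Sod2+/+ values. The genotypes did not overlap on 6 member probe sets that were higher in Sod2-/- and on 8 that were lower, where 7.84% and 10.2% of all probe sets did so. At an unadjusted p under 0.05 limma had 5 members higher and 10 lower, against 7.04% and 12.5% of all probe sets. The direction of calls over the whole array depended on scaling. By the deposited values 83.3% of all calls were lower in Sod2-/-, and after quantile normalization of the arrays 55.7% were.

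**Figure D1:**
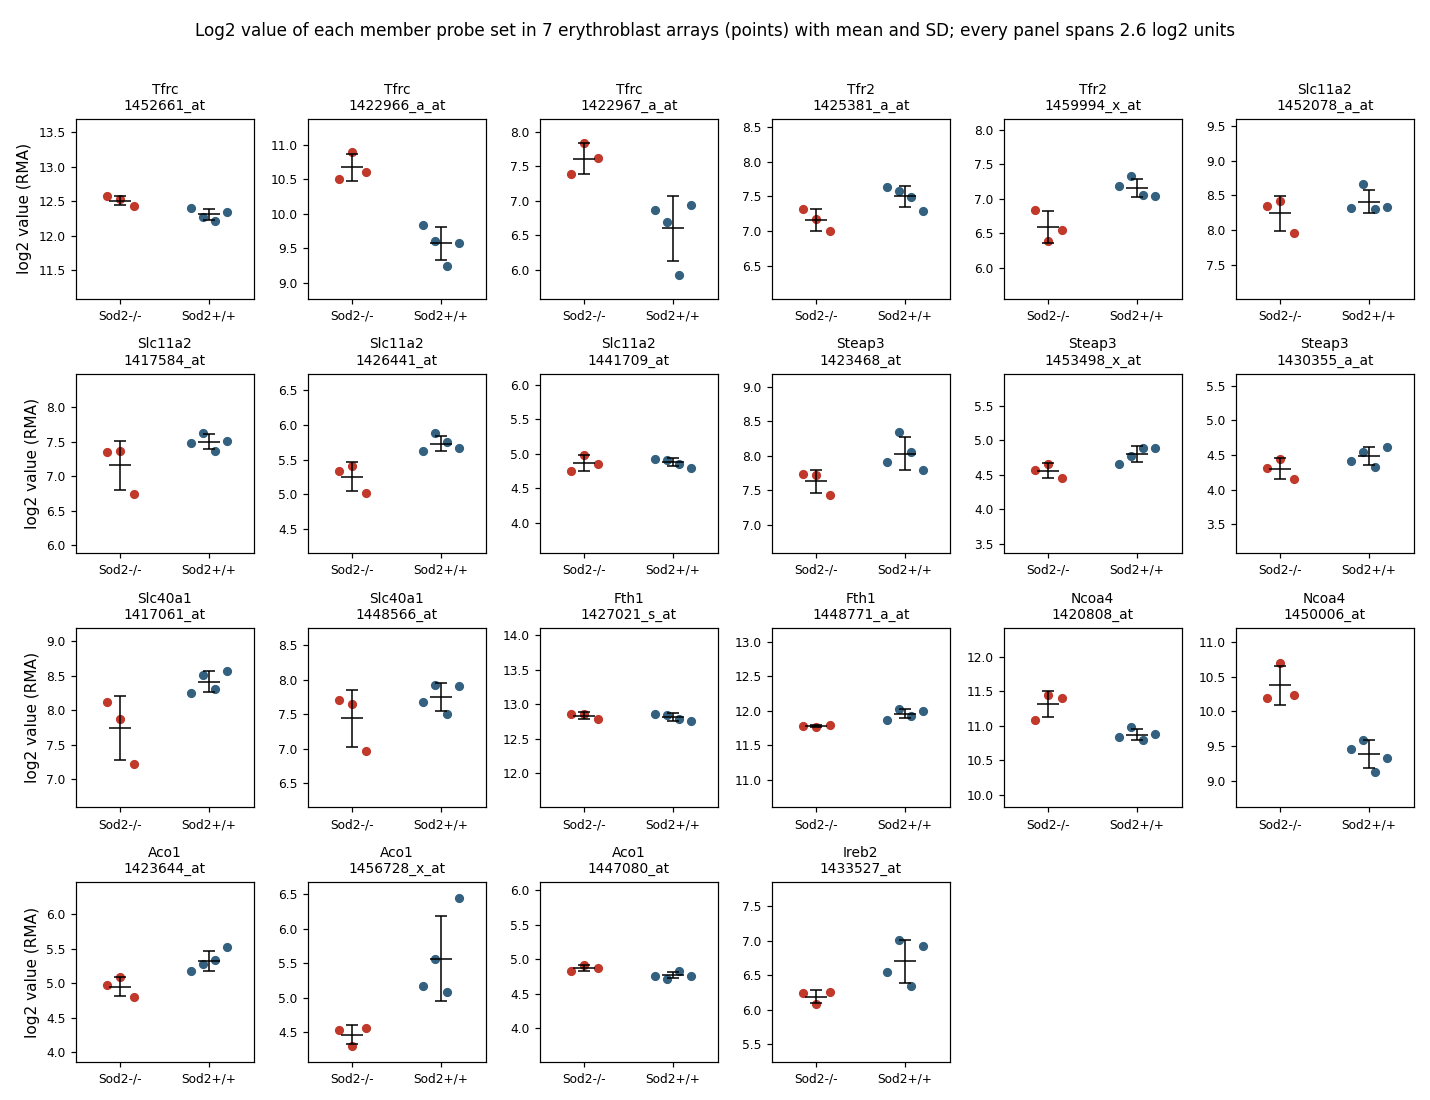
Log2 RMA value of each of the 22 member probe sets in the 3 Sod2-/- arrays (red, left) and 4 Sod2+/+ arrays (blue, right), with the mean and SD in black, on axes of equal span. The probe sets of Tfrc and Ncoa4 lie higher in every Sod2-/- array, while Fth1 differs little and most others lie lower or overlap.

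The transferrin receptor message was higher in Sod2-/- erythroblasts on each of its 3 probe sets, with no overlap between genotypes, but by different amounts. Probe set 1422966_a_at read 10.51, 10.89 and 10.61 in Sod2-/- replicates 31, 35 and 39. It read 9.84, 9.60, 9.25 and 9.58 in Sod2+/+ replicates 17, 29, 33 and 37. The lowest Sod2-/- array was thus above the highest Sod2+/+ array. The difference was 1.11 (SE 0.14, 95% interval 0.78 to 1.43), or 2.15-fold, with a limma adjusted p of 0.0133. It held in 6 of 7 fits that left out 1 array. Without Sod2-/- replicate 35, the highest, it was 1.00 with an adjusted p of 0.0512. It was 0.79 within station 1 and 1.34 within station 2, where limma called no probe set of the whole array, and 1.33 for replicate 35, the highest Sod2-/- array, within its chip lot.

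Probe set 1422967_a_at read 7.38, 7.84 and 7.62 in Sod2-/- arrays, against 6.86, 6.69, 5.92 and 6.94 in Sod2+/+ arrays. Its difference of 1.01 (SE 0.23, 95% interval 0.48 to 1.54) was close to that of 1422966_a_at, but its adjusted p was 0.0547. Sod2+/+ replicate 33 was low, and without it the difference was 0.79 with an adjusted p of 0.0301. The probe set also passed after quantile normalization (1.23, adjusted p 0.029). The brightest Tfrc probe set, 1452661_at, read 12.57, 12.54 and 12.43 in Sod2-/- arrays, against 12.41, 12.28, 12.21 and 12.34 in Sod2+/+ arrays. It separated the genotypes by a narrow margin, and its difference of 0.20 (SE 0.07, 95% interval 0.03 to 0.37), or 1.15-fold, was not called (adjusted p 0.175). Its 95% interval did not overlap that of 1422966_a_at or 1422967_a_at. Which of these sizes applies to the whole message was not tested.

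The control probe sets divide the Tfrc message into segments, and all 3 were higher in Sod2-/- erythroblasts. The 3′ segment read 9.36, 9.66 and 9.34 in Sod2-/- arrays, against 8.59, 8.46, 8.02 and 8.42 in Sod2+/+ arrays, a difference of 1.08 (SE 0.14, limma adjusted p 0.0139). The middle segment read 6.74, 6.77 and 6.81 in Sod2-/- arrays, against 5.96, 6.04, 5.76 and 6.27 in Sod2+/+ arrays, a difference of 0.77 (SE 0.11, adjusted p 0.0186). The 5′ segment read 5.15, 5.38 and 5.35 in Sod2-/- arrays, against 4.79, 4.85, 4.69 and 4.87 in Sod2+/+ arrays, a difference of 0.49 (SE 0.08, adjusted p 0.0256). On every segment the groups were separate, and Sod2+/+ replicate 33 was lowest, as it was on all 3 other Tfrc probe sets. Without Sod2-/- replicate 35 none of the 3 was called (adjusted p 0.0553, 0.0672 and 0.0943 for the 3′, middle and 5′ segments). For replicate 35 within its chip lot the differences were 1.29, 0.77 and 0.57.

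The 3′ minus 5′ gap of the Tfrc controls, a common gauge of how complete the labelled message is, was 4.16 ± 0.16 in Sod2-/- arrays (SD, n = 3) and 3.57 ± 0.19 in Sod2+/+ arrays (SD, n = 4). That difference of 0.59 had an exact two-sided permutation p of 0.0571, the smallest that 35 splits allow (0.0857 adjusted over 3 genes). The same gap ran the other way for Gapdh, at 1.14 ± 0.06 in Sod2-/- arrays and 1.32 ± 0.10 in Sod2+/+ arrays (exact permutation p = 0.0571, n = 3 and 4). For Actb it was 0.72 ± 0.05 in Sod2-/- arrays and 0.75 ± 0.09 in Sod2+/+ arrays (exact permutation p = 0.857, n = 3 and 4). The gap of Tfrc was thus larger in every Sod2-/- array than in any Sod2+/+ array, and with 3 arrays against 4 no such test can reach 0.05. The 5′ segment of Tfrc was dim, with means of 5.29 in Sod2-/- and 4.80 in Sod2+/+ arrays. The median of all tested probe sets was 4.48. A gap that rests on so dim a segment cannot tell how complete the message is from how much of it there is.

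**Figure D2:**
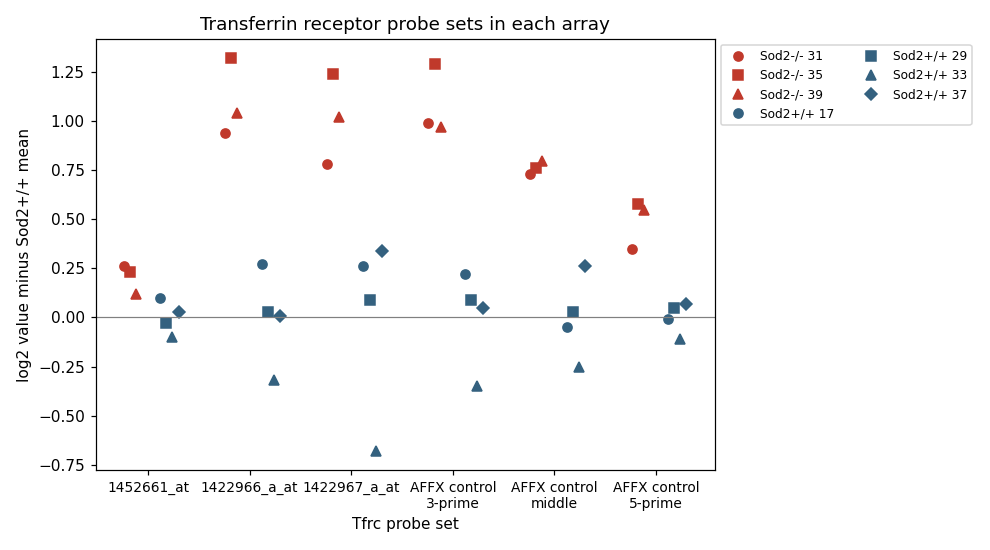
Log2 value of each Tfrc probe set in each array minus the Sod2+/+ mean of that probe set, for Sod2-/- replicates (red) and Sod2+/+ replicates (blue). All Sod2-/- points lie above all Sod2+/+ points of the same probe set, with the smallest distance on 1452661_at.

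Cells of both genotypes had been sorted as positive for CD71, the protein that Tfrc encodes, so the gate set a lower limit to the receptor on them. By the paper's description the gate took in every stage of developing erythroid cell that carries both TER-119 and CD71. In bulk RNA a larger share of one cell stage and more message per cell cannot be told apart. Of 5 early progenitor markers, 1 was lower in Sod2-/- samples, Myb (-1.24, adjusted p 0.0303), a transcription factor of immature blood cells. Gata2 of that list read 6.78 in Sod2-/- and 6.84 in Sod2+/+ arrays, a difference of -0.06 (limma adjusted p 0.865). Cd34 and Myc were dimmer than the median of tested probe sets, and Kit read 4.71 in Sod2-/- and 4.61 in Sod2+/+ arrays. The 5 measured late erythroblast markers were all above 0, with a median of 0.16 and none called, and their summed linear level was 19500 to 21300 in Sod2-/- samples, against 17600 to 19000 in Sod2+/+ samples. By flow cytometry the paper reports a shift of Sod2-/- marrow toward less mature cells, with a larger share of basophilic erythroblasts, which are high in CD71. It ascribes the higher CD71 protein both to that shift and to more receptor within cells of this stage. The part of cell stage in the Tfrc result was not tested here.

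Tfr2, the second transferrin receptor, which in mouse erythroblasts binds the erythropoietin receptor, lay lower in Sod2-/- erythroblasts. Probe set 1459994_x_at read 6.84, 6.38 and 6.55 in Sod2-/- arrays, against 7.18, 7.32, 7.05 and 7.04 in Sod2+/+ arrays, without overlap. The difference was -0.56 (SE 0.12, 95% interval -0.83 to -0.29), or 1.48-fold lower, with a limma adjusted p of 0.0427. The call was lost in 6 of 7 fits that left out 1 array, and after quantile normalization the difference was -0.37 (adjusted p 0.0958). The suffix _x_at marks a probe set that may bind other transcripts as well. The other Tfr2 probe set, 1425381_a_at, read 7.32, 7.17 and 7.00 in Sod2-/- arrays, against 7.64, 7.58, 7.49 and 7.29 in Sod2+/+ arrays. Its groups overlapped, and its difference of -0.34 (95% interval -0.58 to -0.09) was not called (adjusted p 0.125) and was -0.10 after quantile normalization.

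The endosomal partners of transferrin receptor 1 gave no call. Slc11a2 had 4 probe sets with differences of -0.47, -0.34, -0.17 and -0.01. Of these 1426441_at came closest to the threshold, with 5.34, 5.40 and 5.01 in Sod2-/- arrays and 5.62, 5.88, 5.75 and 5.66 in Sod2+/+ arrays. Its groups did not overlap (adjusted p 0.0541). It passed when each array was centred on its median (-0.51, adjusted p 0.0474) and when bright probe sets alone were tested (adjusted p 0.0368). The brightest, 1452078_a_at, read 8.35, 8.42 and 7.95 in Sod2-/- arrays, against 8.32, 8.66, 8.31 and 8.33 in Sod2+/+ arrays, and its interval ran from -0.47 to 0.14. On this gene the low array was Sod2-/- replicate 39, for 3 of the 4 probe sets. Without it the difference was -0.13 on 1417584_at, against -0.34 with all arrays, and -0.02 on 1452078_a_at, against -0.17. Quantile normalization also moved these, to -0.11 and 0.08.

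Steap3 lay lower on its 3 probe sets, at -0.40, -0.24 and -0.17, with adjusted p of 0.153, 0.168 and 0.379. Its brightest probe set, 1423468_at, read 7.73, 7.72 and 7.43 in Sod2-/- arrays, against 7.91, 8.35, 8.06 and 7.79 in Sod2+/+ arrays, separate by a narrow margin. The 95% interval of its difference was -0.71 to -0.09, and after quantile normalization the difference was -0.15. Probe set 1430355_a_at, with -0.17, was the only member dimmer than the median of all tested probe sets, and without Sod2-/- replicate 39 its difference was -0.10.

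Ferroportin, the iron exporter, was not called on either probe set. Slc40a1 probe set 1417061_at read 8.12, 7.87 and 7.22 in Sod2-/- arrays, against 8.25, 8.51, 8.31 and 8.56 in Sod2+/+ arrays. The groups were separate, with Sod2-/- replicate 39 well below the rest, and the difference was -0.67 (SE 0.19, 95% interval -1.11 to -0.24, adjusted p 0.0949). Without replicate 39 it was -0.42 (adjusted p 0.134), and after quantile normalization -0.43. The other probe set, 1448566_at, read 7.70, 7.65 and 6.97 in Sod2-/- arrays, against 7.67, 7.93, 7.51 and 7.91 in Sod2+/+ arrays. Here the groups overlapped, with a difference of -0.31 (adjusted p 0.401) that was -0.08 without replicate 39 and -0.08 after quantile normalization.

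Sod2-/- replicate 39 also stood apart in some markers of macrophages, cells that are themselves rich in ferroportin. The summed linear level of the 12 macrophage markers was 464 to 1670 in Sod2-/- samples, with replicate 39 at the top, against 540 to 623 in Sod2+/+ samples. The complement genes C1qa, C1qb and C1qc read 7.65, 8.09 and 8.33 in replicate 39 and at most 4.43, 4.64 and 4.68 in the other Sod2-/- arrays. Cd5l read 7.50 in replicate 39 and 5.40 and 5.66 in the others. Vcam1 and Mrc1 did not follow, at 6.41 and 5.25 in replicate 39, against 6.53 and 5.28 in replicate 31 and 6.63 and 5.26 in replicate 35. Cd163 and Mertk of the same list were dimmer than the median of tested probe sets. None of the 12 was called. The array with the highest summed macrophage markers was thus the lowest for Slc40a1, and the part of those cells in either result was not tested.

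Ferritin heavy chain and the ferritin receptor of autophagy gave different results. Fth1 probe set 1427021_s_at read 12.86, 12.86 and 12.78 in Sod2-/- arrays, against 12.86, 12.85, 12.78 and 12.75 in Sod2+/+ arrays. Its groups overlapped and the difference was 0.02, with a narrow 95% interval of -0.12 to 0.17 (adjusted p 0.881). The direction of this small value turned to -0.01 when arrays were centred on their medians. Probe set 1448771_a_at read 11.78, 11.77 and 11.79 in Sod2-/- arrays, against 11.87, 12.03, 11.93 and 12.00 in Sod2+/+ arrays. These were separate but close, with a difference of -0.18 (95% interval -0.33 to -0.03, adjusted p 0.184) that was -0.04 after quantile normalization. Ferritin protein was not measured on these arrays.

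Ncoa4, which carries ferritin to the lysosome and is known in mouse erythroblasts for freeing iron for hemoglobin, was higher in Sod2-/- erythroblasts on both probe sets. Probe set 1450006_at read 10.19, 10.70 and 10.24 in Sod2-/- arrays, against 9.46, 9.59, 9.12 and 9.33 in Sod2+/+ arrays. The groups lay well apart, and the difference was 1.00 (SE 0.15, 95% interval 0.66 to 1.34), or 2.00-fold, with a limma adjusted p of 0.0206. It passed in 5 of 7 fits that left out 1 array. Without Sod2+/+ replicate 37 its adjusted p was 0.0571, and without Sod2-/- replicate 35 it was 0.0548 with a difference of 0.84. The difference was 0.66 within station 1, 1.24 within station 2 and 1.33 for replicate 35, the highest Sod2-/- array, within its chip lot.

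Probe set 1420808_at of Ncoa4 read 11.09, 11.45 and 11.41 in Sod2-/- arrays, against 10.84, 10.98, 10.79 and 10.89 in Sod2+/+ arrays. The groups were separate, and the difference of 0.44 (SE 0.10, 95% interval 0.22 to 0.67), or 1.36-fold, stood at an adjusted p of 0.0498. It passed in 1 of 7 fits that left out 1 array, the one without Sod2-/- replicate 31, where it was 0.55 (adjusted p 0.0273). The call was also lost with fluidics station as a block (0.43, adjusted p 0.0783) and with chip lot as a block (0.58, adjusted p 0.0874). On both Ncoa4 probe sets, as on 1422966_a_at of Tfrc, Sod2-/- replicate 35 was highest and Sod2+/+ replicate 33 lowest.

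The iron regulatory proteins were not called. Ireb2, with 1 probe set, 1433527_at, read 6.24, 6.08 and 6.25 in Sod2-/- arrays, against 6.54, 7.01, 6.34 and 6.92 in Sod2+/+ arrays. The groups were separate and the difference was -0.51 (SE 0.16, 95% interval -0.87 to -0.16, adjusted p 0.114). Without Sod2+/+ replicate 33, the lowest of its group, it was -0.63 with an adjusted p of 0.0498. Aco1, whose protein is a cytosolic aconitase while it holds an iron-sulfur cluster and an IRE-binding protein without it, had probe sets that disagreed. Probe set 1456728_x_at read 4.53, 4.30 and 4.57 in Sod2-/- arrays, against 5.18, 5.57, 5.09 and 6.45 in Sod2+/+ arrays, with a wide spread in Sod2+/+. Its difference of -1.10 (SE 0.29, 95% interval -1.76 to -0.44) had an adjusted p of 0.0779, which was 0.0376 when bright probe sets alone were tested. It counted as bright (mean above 4.48) through its Sod2+/+ values, since its Sod2-/- mean was 4.47. Without Sod2+/+ replicate 37, the highest, the difference was -0.81. Its suffix _x_at again marks a probe set that may bind other transcripts.

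Aco1 probe set 1423644_at read 4.97, 5.09 and 4.80 in Sod2-/- arrays, against 5.17, 5.27, 5.34 and 5.52 in Sod2+/+ arrays, separate and lower by -0.37 (95% interval -0.60 to -0.14, adjusted p 0.0867). Probe set 1447080_at read 4.83, 4.91 and 4.88 in Sod2-/- arrays, against 4.76, 4.72, 4.83 and 4.76 in Sod2+/+ arrays. Its difference of 0.10 (95% interval -0.04 to 0.25, adjusted p 0.405) lay on the other side of 0. All 3 Aco1 probe sets had means under 6 on the log2 scale, in a range where array medians were near 4.5.

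**Figure D3:**
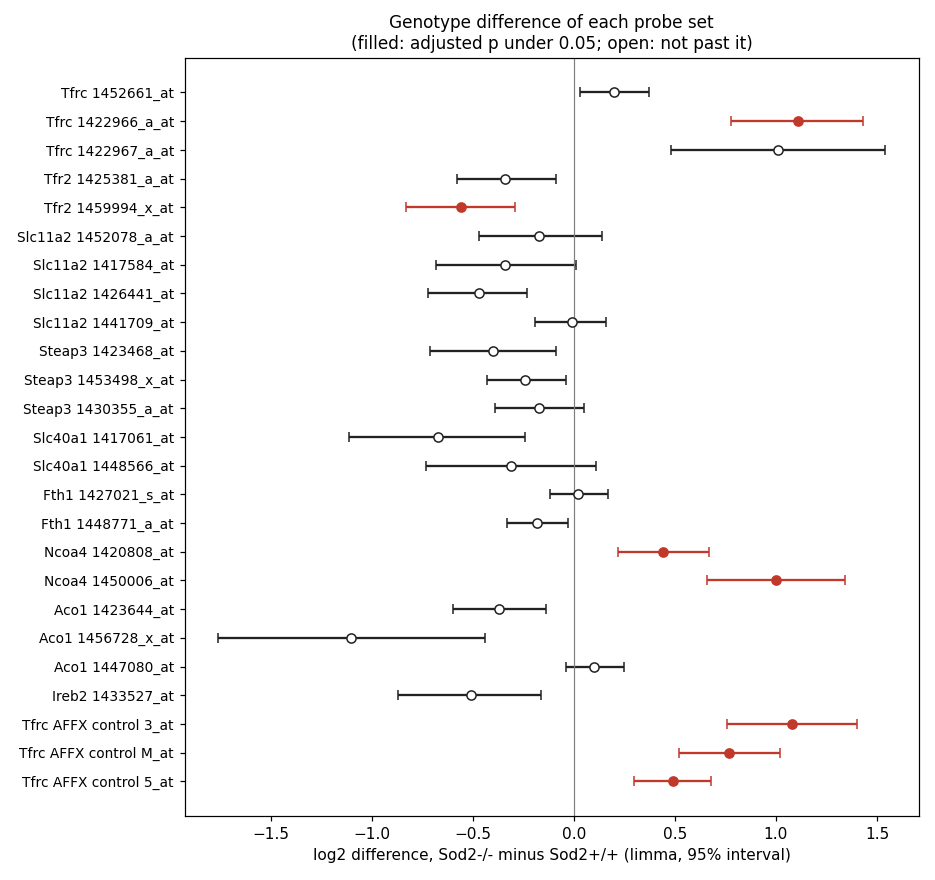
Log2 difference, Sod2-/- minus Sod2+/+, of the 22 member probe sets and the 3 Tfrc controls, with the 95% interval of the limma fit; filled red points passed the adjusted threshold. Tfrc and Ncoa4 lie to the right, with 2.15-fold and 2.00-fold for their largest calls, and Tfr2 1459994_x_at is the call to the left.

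The start regions of the called genes were searched for the motif of GATA factors, which drive erythroid genes, because the arrays show Tfrc and Ncoa4 higher together. The letters GATA with A or T before them and A or G after them were sought on both strands of RefSeq promoter windows of GRCm38.p6, each 300 bases long with 250 before the start. Of all 32851 windows 29.8% held such a match, and of the 17 windows listed for 8 of the 10 members 4 did. The 2 windows of Tfrc held none, 1 of 3 windows of Ncoa4 held a match 125 bases before the start, and 1 of 3 windows of Tfr2 held one 61 bases before. The matches are shown for the called genes with capitals on the motif, from chr14:32159750-32159779 (plus strand) for Ncoa4 and chr5:137570902-137570931 (plus strand) for Tfr2.
Ncoa4: ttagagacttacTGATAGgcacgaaaatga
Tfr2: gcctgtcagggcTGATAAggggccctctag
The share among member windows was 23.5%, and a match describes letters, not binding.

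Around these members, 53 of 59 other genes of iron handling were measured, each by its brightest probe set. Of these 0 were higher and 6 lower in Sod2-/- samples by limma, against 0.412% and 4.47% of all 18193 genes. The methods' t-tests gave 0 as well, but they called at most 1 of all 45037 probe sets higher. At an unadjusted p under 0.05 limma had 4 of the 53 higher and 15 lower, where 7.04% and 12.5% of all probe sets were. The median difference of the 53 was 0.01 and 25 lay below 0, as did 45.8% of all genes. These lists too were chosen with earlier results of these data known. The summed B cell and neutrophil markers were also lower in Sod2-/- samples, and the part of those cells in these calls was not tested.

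Among 11 genes of the transferrin cycle and other uptake, Slc39a8, a zinc, manganese and iron importer, was the 1 call. It read 5.57, 5.53 and 5.33 in Sod2-/- arrays, against 6.22, 6.62, 6.42 and 6.55 in Sod2+/+ arrays. The groups lay far apart, with a difference of -0.98 (SE 0.11, limma adjusted p 0.00848) that passed in 7 of 7 fits that left out 1 array. No other iron gene named here did so. Of 6 genes of export, ferroxidases and the hepcidin axis none was called, and Cp, the ferroxidase ceruloplasmin, had 0.15 (adjusted p 0.38). Of 4 genes of mitochondrial iron import and storage none was called, and Slc25a28, the mitochondrial importer mitoferrin 2, had -0.33 (adjusted p 0.103).

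Genes that serve ferritin and the iron regulatory proteins held the other 5 lower calls. Of 6 genes of iron chaperones and ferritin turnover, Pcbp1, which delivers iron to ferritin, was lower. It read 9.47, 9.42 and 9.47 in Sod2-/- arrays, against 9.88, 10.21, 9.86 and 10.10 in Sod2+/+ arrays, a difference of -0.56 (SE 0.10, limma adjusted p 0.0267). Of 4 genes of the ligase that degrades IRP2, the scaffold Cul1 was lower at -0.58 (adjusted p 0.0487). FBXL5 is the iron-sensing subunit of that ligase, and Cul1 serves many other ligases as well.

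Of 8 genes that supply the iron-sulfur cluster of IRP1 and other cytosolic proteins, 3 were lower, 7 lay below 0 and the median was -0.40. Ciao1, a targeting factor of that machinery, read 6.98, 6.95 and 6.92 in Sod2-/- arrays, against 7.44, 7.81, 7.47 and 7.63 in Sod2+/+ arrays. Its difference was -0.64 (SE 0.10, limma adjusted p 0.0209). Nubp2, part of the scaffold on which the cluster is built, read 7.69, 7.21 and 7.43 in Sod2-/- arrays, against 8.13, 8.48, 8.00 and 8.01 in Sod2+/+ arrays, a difference of -0.71 (SE 0.15, adjusted p 0.0402). Ciapin1, an electron carrier of the same pathway that was named after its values were seen, had -0.37 (adjusted p 0.0393). Of these, Ciao1 passed in 4, Nubp2 in 1 and Ciapin1 in 0 of 7 fits that left out 1 array, Pcbp1 passed in 2 and Cul1 in 1. With fluidics station as a block Slc39a8, Pcbp1, Nubp2 and Ciao1 passed, and Cul1 and Ciapin1 did not. With chip lot as a block Slc39a8 and Cul1 passed and the other 4 did not, while Lcn2 and Atg5, an autophagy gene named after its values were seen, were called lower.

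The 6 measured further messages with an IRE were all above 0, with a median of 0.11 and none called. Hao1 and Pfn2 among them were dimmer than the median of tested probe sets (4.48). Cdc14a, at 4.63 in Sod2-/- and 4.56 in Sod2+/+ arrays, and Epas1, at 5.06 and 4.96, lay close to it. Over all 18193 genes, each by its brightest probe set, 45.8% of differences lay below 0, so a small value above 0 was common. Alas2, the first enzyme of heme synthesis in erythroid cells, read 13.13, 13.20 and 13.07 in Sod2-/- arrays, against 13.04, 12.99, 13.02 and 12.97 in Sod2+/+ arrays. These were separate by a small margin, and the difference of 0.13 was not called (adjusted p 0.306). Of 8 genes of heme transport and breakdown none was called, and Blvra, a biliverdin reductase, had -0.32 (adjusted p 0.114). After quantile normalization Slc48a1, a heme transporter named after its values were seen, was called higher (0.42, adjusted p 0.0265).

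**Figure D4:**
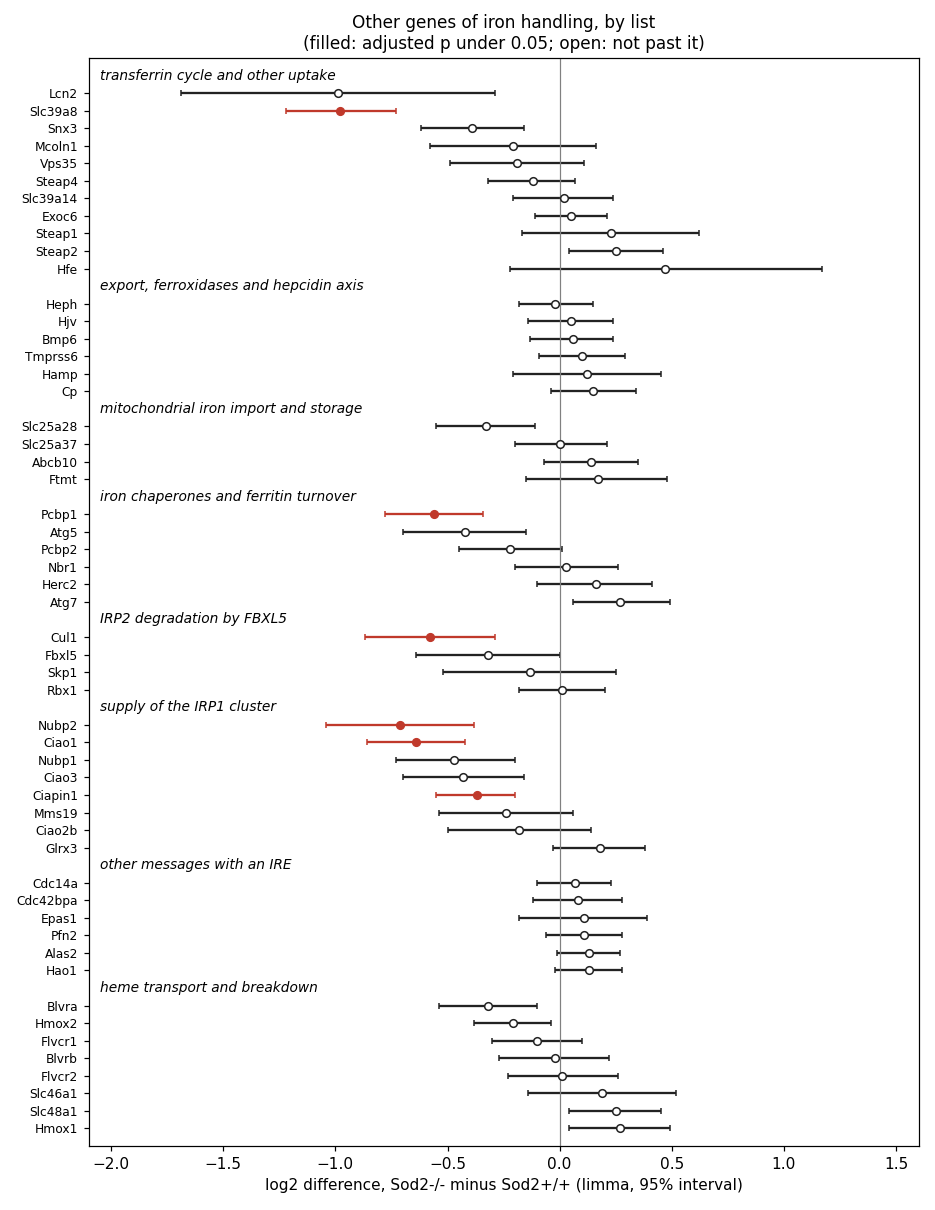
Log2 difference, Sod2-/- minus Sod2+/+, of 53 other genes of iron handling with the 95% interval of the limma fit, grouped by list; filled red points passed the adjusted threshold. The 6 calls all lie to the left of 0, and 3 of them belong to the supply of the IRP1 cluster.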

How the data were processed

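RNA of sorted erythroblasts (3 Sod2-/- and 4 Sod2+/+ samples) was measured on Affymetrix Mouse Genome 430 2.0 arrays. The deposited log2 values were made by the authors by RMA in GeneSifter, and the submitters' processing notes also name GCOS 1.3.037. The paper's methods name 4 arrays of each genotype for that run, and the series' design text 4 Sod2+/+ and 3 Sod2-/- arrays; the remaining Sod2-/- array was not used here. RMA equalises probe intensities across arrays, which can hide a shift shared by most genes, but the deposited probe set values still differed between arrays in their upper range. The deposited settings text of each array, which holds no measurement, gave its chip lot and fluidics station. The values were used as deposited. Of 45101 probe sets, 64 controls were left out and 45037 tested; platform annotation matches 34945 to 1 gene, 932 to several and 9160 to none.

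Sod2-/- and Sod2+/+ arrays were compared by fitting genotype alone with lmFit and eBayes of limma 3.58.1 (R 4.3.3), and p-values were adjusted by Benjamini-Hochberg over the whole set of 45037. The Tfrc controls come from the same fit with controls included. Control segments were compared by an exact permutation test in scipy 1.17.1. The procedure was tested on simulated data. The number of arrays limits the precision. The members and gene lists were chosen with earlier results of these data known. Named genes are all members and, from each list, the 2 largest changes among the calls, or the largest change where none was called, and the 5 genes most like the brightest Tfrc probe set. The alternatives were the methods' t-test (equal and unequal variances), array weights, eBayes with trend and robust estimation, median centring, quantile normalization, an offset of 32, bright probe sets alone (mean above 4.48), batch blocks, single batches, the mean of a gene's probe sets, and leaving out each array. Comparisons that the authors made, in the paper's tables, were not used.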

Additional observations from a re-analysis of the deposited data

Results flagged for a closer look

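In 25 sets of 4 Sod2+/+ arrays tested by Dixon's ratio, 1 held an array far from the others, on Slc11a2 probe set 1452078_a_at. Sod2+/+ replicate 29 read 8.66 there, and the gap to the next array was 0.944 of the range of the group, past the 95% critical value for 4 arrays. Chance gives such a result in a small share of groups (about 5%), and groups of 3 Sod2-/- arrays were not tested.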

How the results depend on the processing

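The number of arrays limits these results, and single stations with 3 and 4 arrays called 0 probe sets of the whole array (3356 and 5905 at an unadjusted p under 0.05). Of 3 member probe sets called higher, the methods' t-tests with equal and unequal variances called 0 and 0, an offset of 32 called 1, stations 1 and 2 alone called 0 and 0, and fits without 1 array called 0 to 3. The 0 was without Sod2-/- replicate 35, and without Sod2+/+ replicate 37 it was 1. Of 1 called lower, both t-tests, quantile normalization, the offset, chip lot as a block, either station alone and the chip lot with both genotypes alone called 0, centring called 2, bright probe sets alone called 3, and fits without 1 array 0 to 1. The 0 came without Sod2+/+ replicate 17, 29 or 37 or Sod2-/- replicate 35 or 39. The 3 among bright probe sets include Aco1 1456728_x_at, which counted as bright only through its Sod2+/+ values. For other iron genes higher, 0 in the report, quantile normalization gave 1. For other iron genes lower, 6 in the report, both t-tests gave 0, the offset 1, either station 0, the chip lot with both genotypes alone 1, and fits without 1 array 1 to 5, with 1 without Sod2+/+ replicate 37, Sod2-/- replicate 35 or Sod2-/- replicate 39, 2 without Sod2+/+ replicate 29 and 3 without Sod2+/+ replicate 17. For the 3 Tfrc controls, both t-tests, either station and the chip lot with both genotypes alone gave 0, chip lot as a block 1, and fits without 1 array 0 to 3. Chip lot as a block and the chip lot with both genotypes alone rest on Sod2-/- replicate 35 alone, and station 1 on replicate 31 alone, each assumed to vary like the other arrays. Over all probe sets the t-tests called 1 higher and 3 lower with equal variances and none with unequal variances (5643 at an unadjusted p under 0.05). The direction turned for Slc11a2 1452078_a_at, to 0.08 after quantile normalization and 0.02 with chip lot as a block and in the chip lot with both genotypes alone. It turned for Slc11a2 1441709_at, to 0.11 with chip lot as a block, 0.09 in station 2 and 0.11 in the chip lot with both genotypes alone, with -0.07 to 0.04 in fits without 1 array, and for Fth1 1427021_s_at, to -0.01 after centring. The cause was not tested. No called value changed direction. Of 324 values for single probe sets and genes under settings with all arrays or a single batch, 265 kept their direction and side of the threshold, 46 lost and 6 gained a call, and 7 turned. No paired analysis was possible because the genotypes share no replicate numbers, and the sources do not say which samples were sorted side by side.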

Other observations

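Over the 7 arrays, the genes whose log2 values followed the brightest Tfrc probe set most closely, among 11954 genes compared by their brightest probe set, were Ubxn11 (Pearson r 0.977), Gpatch11 (0.971), Pim2 (0.963), Oit1 (0.963) and Tpmt (0.960). None of the 5 was called between genotypes. Nor was that Tfrc probe set, 1452661_at, with a difference of 0.20 (limma adjusted p 0.175). The difference was 1.11 on Tfrc probe set 1422966_a_at and 1.01 on 1422967_a_at. The points share arrays, scaling and genotype, and these are descriptions without a test.

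Of 5 measured megakaryocyte and 5 measured T cell markers none was called, with median differences of 0.00 and 0.09. Neutrophil markers were below 0 on all 11 measured genes, with a median difference of -0.84 and none called, though 9 had an unadjusted limma p under 0.05. Their summed linear level was 16500 to 34400 in Sod2-/- samples, against 34600 to 43200 in Sod2+/+ samples. Lcn2, which binds bacterial iron carriers and belongs to that list and to the list of iron uptake, read 11.27, 9.73 and 10.33 in Sod2-/- arrays, against 11.52, 11.29, 11.22 and 11.70 in Sod2+/+ arrays. Its difference of -0.99 was not called (limma adjusted p 0.12). It was -1.71 with chip lot as a block (adjusted p 0.0477), where it rests on Sod2-/- replicate 35 alone, and -1.41 without Sod2-/- replicate 31, the highest of its group (adjusted p 0.0253).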
